A study of Mus musculus with 20 samples.

Results

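Hepatocyte deletion of *Cideb* under Western diet (WD) was examined in 10 livers, 5 KO and 5 WT, chosen by their labels out of the 20 livers of the series. All mice carried the floxed allele (Cideb fl/fl). The vector was AAV-TBG-GFP in WT mice and AAV-TBG-Cre in KO mice. It was injected at 6 weeks of age. The labels give 3 months on WD for both groups, whereas the study's text and captions give a longer time. The TBG promoter limits Cre to hepatocytes, so the other cells of a KO liver keep *Cideb*, and both groups carry the floxed allele and a vector. The other 10 livers came from mice on a choline-deficient, high-fat diet (CDA-HFD), with the same vectors and 5 livers in each group. They entered the test of whether a KO effect differed between the diets. They were also compared KO against WT on their own, and entered an alternative fit of all 20 livers. RNA of whole liver was sequenced, and values are read counts per gene or TMM-normalized CPM, in which the size of each library is adjusted by its TMM factor.

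CIDEB is one of the CIDE proteins, which sit on lipid droplets and on the endoplasmic reticulum, and its relatives CIDEA and CIDEC help droplets fuse and grow. In hepatocytes, CIDEB takes part in loading lipid onto very low density lipoprotein (VLDL), the particle that carries triglyceride out of the liver. A WD is rich in fat, sugar and cholesterol and makes hepatocytes store lipid. Hepatocytes burn part of that lipid in mitochondria and peroxisomes under the control of the nuclear receptor PPARα, and hepatocytes of an uninjured adult liver rarely divide.

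Reads on genes numbered between 11697049 and 16196554 in WT livers, and between 11845996 and 15376322 in KO livers. Serum protein genes of hepatocytes were abundant in every library, and the smallest level of *Alb*, which encodes albumin, was 37797 CPM. KO liver 3 stood apart in quality, with 6.82% of its reads not aligned, where the other KO livers had 3.28% to 3.87% and WT livers 3.51% to 4.30%, and with 28.7% of its reads aligned to more than 1 place, where the others had 21.9% to 25.2%. The first principal component of log2 CPM held 33.1% of the variance and did not follow the groups, with WT livers between -40.5 and 28.2 and KO livers between -18.2 and 40.5. On the second, with 17.6%, WT livers lay between -16.9 and -11.3 and KO livers between -8.28 and 40.6. The groups did not overlap there (exact two-sided permutation test, p = 0.00794, the smallest that 5 livers against 5 allow, and 0.0635 adjusted over 8 checks of the libraries). KO liver 5 lay nearest to the WT livers and KO liver 3 farthest from them.

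Few genes changed past the threshold, which was an adjusted p under 0.05 by the quasi-likelihood F test of edgeR. Of 15848 genes tested, 12 (0.0757%) passed, of which 2 (0.0126%) rose in KO livers and 10 (0.0631%) fell. Those that rose were *Retsat* and *Adam11*. Those that fell were *Cideb*, *Ltb4r2*, *Gm20075*, *Stap1*, *0610043K17Rik*, *Mcm4*, *Mcm5*, *Pole*, *Pgm3* and *Plscr4*. None of the 12 overlapped between the groups. Leaving out 1 liver at a time, the number that passed ranged from 1 to 33, and *Cideb* passed in each of these 10 fits. Without WT liver 3 all 12 passed among 33 genes, and without KO liver 5, 10 of the 12 passed among 22. Without KO liver 4 there were 5 and without WT liver 1 there were 3. Without WT liver 2, WT liver 4 or KO liver 1 there were 2, and without WT liver 5, KO liver 2 or KO liver 3 only *Cideb* passed. Each of the 12 kept its direction in all of these fits.

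Below that threshold, the difference was spread over many genes of modest size. At an unadjusted p under 0.05 there were 1702 genes (10.7% of those tested), 811 (5.12%) with a higher and 891 (5.62%) with a lower value in KO livers. Their median log2 fold change was 0.35 on the higher side and -0.54 on the lower side. Counts of list members at that level, given below, are to be read beside the shares of 5.12% and 5.62%. The 5 WT and 5 KO livers did not overlap for 351 genes (2.21%), 186 of them higher (1.17%) and 165 lower (1.04%) in KO livers. The median log2 fold change of all genes tested was 0.01, and 52.8% of the genes were above 0. Large changes were few among well expressed genes. Of the 4674 genes whose mean log2 CPM was 5 or more, 96.3% had a 95% interval of the log2 fold change that lay inside -1 to 1, and 86.8% had one that lay inside a 1.5-fold change either way.

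**Figure D1:**
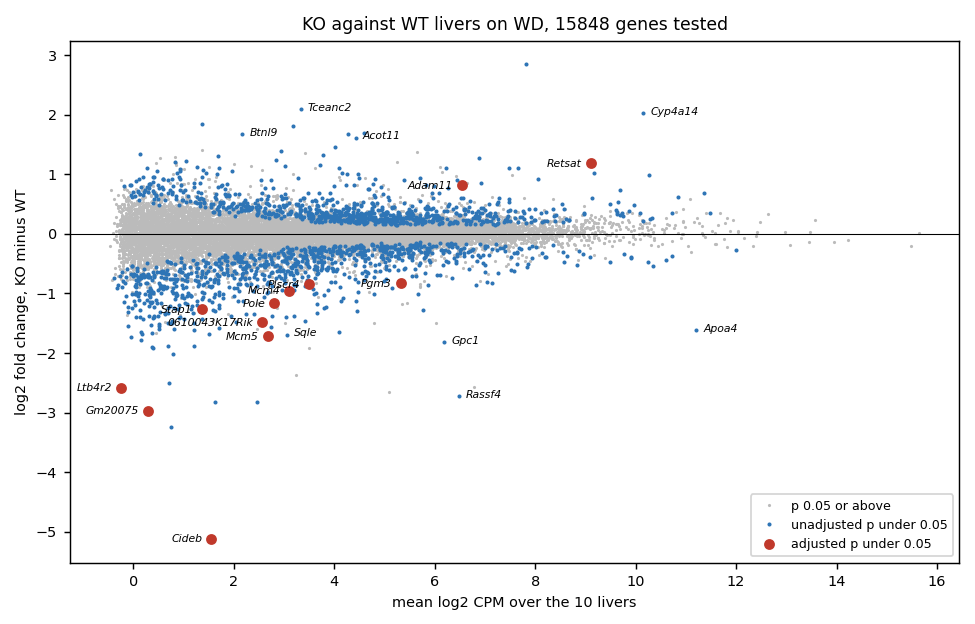
Log2 fold change of KO against WT livers on WD (vertical axis) against the mean log2 CPM over the 10 livers (horizontal axis), with 1 point for each of the 15848 genes tested. Red points are the 12 genes past an adjusted p of 0.05, blue points have an unadjusted p under 0.05 without passing, and *Cideb* lies lowest at -5.12.

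The targeted gene was nearly lost, and the genes beside it on chromosome 14 did not all behave alike. *Cideb* had 61, 76, 100, 52 and 86 reads in WT livers and 0, 5, 0, 2 and 3 reads in KO livers. Summed over livers and scaled by depth, 2.72% of the WT signal remained in KO livers, with a 95% interval of 1.29% to 5.05% from counting error alone. *Ltb4r2*, a leukotriene B4 receptor gene whose 5′ end in the RefSeq annotation overlaps that of *Cideb* on the opposite strand, fell as well. WT livers had 1.68, 0.842, 1.29, 0.971 and 1.17 CPM of *Ltb4r2* and KO livers had 0.245, 0.1396, 0.0827, 0.138 and 0.3503 CPM. The estimated log2 fold change was -2.58 (edgeR adjusted p = 0.0223, standard error 0.35), on 11 to 24 reads in WT livers and 1 to 5 reads in KO livers. *Ltb4r1*, the neighboring receptor gene, was too low to be tested, with 6 to 14 reads in WT livers and 1 or 2 reads in KO livers, and did not overlap between the groups. *Nop9*, a nucleolar RNA-binding protein gene that overlaps *Cideb* on the opposite strand, had a log2 fold change of 0.27 (edgeR adjusted p = 0.325). Strand use in counting is not given in the sources used here, so reads from *Cideb* and from these neighbors cannot be told apart with certainty. Further along the same stretch, *Dhrs1*, a short-chain dehydrogenase gene, averaged 108 ± 14.5 CPM over WT and 139 ± 17.6 CPM over KO livers (SD, n = 5 each), without overlap (log2 fold change 0.36, edgeR adjusted p = 0.316). *Ripk3*, a kinase of necroptosis, had -0.89 (edgeR adjusted p = 0.259). Of the 2 relatives, *Cidec* had a log2 fold change of -0.80 (edgeR adjusted p = 0.384) and *Cidea* had -0.84 (edgeR adjusted p = 0.581), and neither passed.

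Genes of DNA replication and mitosis were lower in KO livers, most of them without passing the threshold. Of 50 genes listed, 46 were tested. In KO livers 43 of these had a log2 fold change below 0, 3 fell past the threshold, and 33 (71.7%) were lower at an unadjusted p under 0.05, where the share over all genes was 5.62%. None was higher at that level. Over the list the median log2 fold change was -0.76, against 0.01 over all genes tested. Restricted to the 19 members whose mean log2 CPM was 2 or more, it was -0.72, and 15 of the 19 were lower at an unadjusted p under 0.05. In 37 of the 46 the level that the filter asks for was met in every liver, and in 3 it was met in every WT liver only.

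The 3 that fell are *Mcm4* and *Mcm5*, subunits of the MCM helicase that opens DNA at replication origins, and *Pole*, the catalytic subunit of DNA polymerase epsilon. WT livers had 12.5, 10.3, 9.33, 11.7 and 12.2 CPM of *Mcm4* and KO livers had 6.698, 4.96, 6.37, 5.31 and 5.605 CPM. Every KO liver was below every WT liver, with a log2 fold change of -0.96 (edgeR adjusted p = 0.0223, standard error 0.13). WT livers had 11.9, 9.42, 5.79, 7.77 and 13.03 CPM of *Mcm5* and KO livers had 3.76, 2.58, 3.23, 1.93 and 3.15 CPM. WT livers spread more widely here, and WT liver 3 had the lowest WT value, with a log2 fold change of -1.72 (edgeR adjusted p = 0.0281, standard error 0.24). WT livers had 10.8, 9.57, 6.67, 9.53 and 11.01 CPM of *Pole* and KO livers had 5.15, 3.98, 4.88, 3.24 and 3.99 CPM. KO livers differed from WT livers by -1.17 on the log2 scale (edgeR adjusted p = 0.0285, standard error 0.17).

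The other MCM subunits had log2 fold changes of -1.33 for *Mcm6* (edgeR adjusted p = 0.102), -0.95 for *Mcm2*, -0.72 for *Mcm3* and -0.38 for *Mcm7*. Ribonucleotide reductase, which makes deoxynucleotides, had -0.57 for *Rrm1* and -0.75 for *Rrm2*, and the latter did not overlap between the groups. Among genes of mitosis, *Aurkb*, a kinase of chromosome segregation, had -1.52, *Top2a*, which untangles DNA, had -1.40, *Cenpf* had -1.37, and the proliferation marker *Mki67* had -1.25. None of these passed the threshold. The G1 cyclin genes had -0.54 for *Ccnd1*, 0.08 for *Ccne1* and -0.17 for *Ccne2*, and unadjusted p-values of 0.168, 0.746 and 0.383 from edgeR. *Tk1* and *Mcm10* lay above 0, at 0.37 and 0.38.

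**Figure D2:**
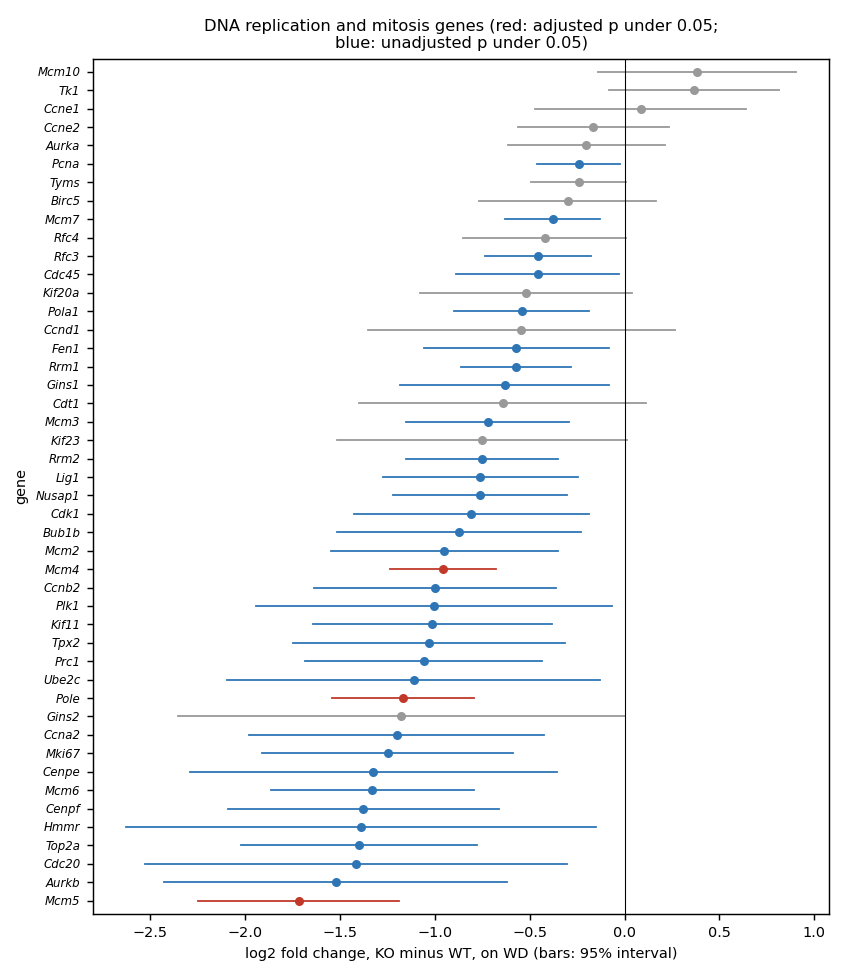
Log2 fold change of KO against WT livers on WD (horizontal axis) for the 46 tested genes of DNA replication and mitosis (vertical axis), with 95% intervals from the edgeR fit as bars. Red marks the 3 genes past an adjusted p of 0.05 and blue the others with an unadjusted p under 0.05, and 43 of the 46 lie below 0.

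Averaged over the list in each liver, as the mean log2 deviation from the WT mean, KO livers lay between -1.03 and -0.42 and WT livers 1, 2, 4 and 5 between -0.03 and 0.25. WT liver 3, at -0.59, lay within the KO range. The same liver had the lowest WT average of recruited macrophage markers, at -0.89, and of Kupffer cell markers, at -0.52, and KO liver 4 was lowest in all 3 lists. The part of immune cells in the replication genes was not tested. In whole liver, fewer dividing cells and less RNA per cell cannot be told apart. Leaving out 1 liver at a time, the median of the list lay between -0.98, without WT liver 3, and -0.73, without WT liver 2. Between 28 and 37 members were lower at an unadjusted p under 0.05 in those fits.

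Some promoters of these genes hold a binding word of E2F, the family of factors that switches on genes of replication, and those with such a word are shown to place it beside the values. The words TTTCCCGC, TTTGGCGC, TTTCGCGC and TTTGCCGC were searched on both strands of RefSeq promoters, which run from 250 bases before to 50 bases after the start of a gene in GRCm38.p6. Here and for the elements below, a member was counted when any promoter of its gene matched, whereas all promoters were counted singly. The words occur in 744 of all 32851 promoters (2.26%), and in 9 of the 36 members of the list that had a promoter in the table (25%). Among the 27 of these with an unadjusted p under 0.05, 8 hold a word. The first match in each follows in capitals with 10 bases on either side. *Pole* and *Mcm4* had no entry in the table.
Mcm5 (chr8:75109346-75109373, plus strand): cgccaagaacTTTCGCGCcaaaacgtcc
Mcm6 (chr1:128359798-128359825, minus strand): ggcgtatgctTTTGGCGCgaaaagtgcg
Mcm3 (chr1:20820276-20820303, minus strand): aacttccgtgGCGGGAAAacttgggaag
Mcm7 (chr5:138172031-138172058, minus strand): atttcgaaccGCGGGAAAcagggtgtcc
Cdk1 (chr10:69353026-69353053, minus strand): ttccgctcccTTTCGCGCtctgcgctcc
Lig1 (chr7:13278842-13278869, plus strand): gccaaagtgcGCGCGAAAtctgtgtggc
Pola1 (chrX:93632276-93632303, minus strand): tcatcacaggGCGCCAAAtgcactcccg
Rfc3 (chr5:151651201-151651228, minus strand): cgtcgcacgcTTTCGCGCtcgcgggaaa

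The word TTTCGCGC is in the *Mcm5*, *Cdk1* and *Rfc3* stretches as written, and in the *Lig1* and *Mcm6* stretches on the other strand. The log2 fold changes of these 5 genes ranged from -0.45 for *Rfc3* to -1.72 for *Mcm5*. A match describes the letters and does not show that a factor was bound.

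Targets of PPARα, many of them genes of fatty acid oxidation, leaned higher in KO livers, and *Retsat* was the only one that passed. *Retsat* encodes retinol saturase, an enzyme that acts on vitamin A. WT livers had 241, 273, 392.5, 372 and 397 CPM of *Retsat* and KO livers had 680.3, 947, 909, 667 and 617 CPM. Every KO liver was above every WT liver, with a log2 fold change of 1.19 (edgeR adjusted p = 0.0285, standard error 0.17). It lies on the plus strand of chromosome 6, from 72598602 to 72607488 in the RefSeq annotation of GRCm38. Over all genes tested, 1.17% were higher in KO livers without overlap. The window of 300 kb was placed around *Retsat* because it passed. Of the 19 genes tested there, *Retsat* included, 3 more did not overlap between the groups, all higher in KO livers. These were *Gm15401* (log2 fold change 1.21), *Elmod3* (0.53) and *Tmem150a* (0.39), with adjusted p-values from 0.140 to 0.169 from edgeR.

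Of 36 PPARα targets tested, 14 were higher and 5 lower at an unadjusted p under 0.05, where 5.12% and 5.62% of all genes were. The median was 0.19. *Cyp4a14*, an omega-hydroxylase of fatty acids and a sensitive reporter of PPARα activity, came closest to the threshold after *Retsat*. WT livers had 198, 292, 735, 641 and 377 CPM of *Cyp4a14* and KO livers had 2111, 1957, 2448, 1236 and 1381 CPM. All KO livers were above all WT livers, but the WT livers varied widely (log2 fold change 2.03, standard error 0.34, edgeR adjusted p = 0.0680). *Cyp4a10* did not overlap either, with 1.03 (edgeR adjusted p = 0.162), and *Cyp4a31* had 1.32 (edgeR adjusted p = 0.140). These are near copies of each other, so reads that fit several of them may have been left uncounted. They lie on chromosome 4, as does *Tceanc2*, given below. Among WT livers, *Cyp4a14*, *Cyp4a10* and *Tceanc2* were highest in WT livers 3 and 4, whereas *Cyp4a31* was highest in WT liver 2. Whether PPARα activity or a shared stretch of chromosome 4 lies behind these values was not tested. *Ehhadh*, the peroxisomal bifunctional enzyme, averaged 623 ± 81.6 CPM over WT and 1038 ± 257 CPM over KO livers (SD, n = 5 each) (log2 fold change 0.74, edgeR adjusted p = 0.169). *Creb3l3*, *Acot1*, *Slc25a20*, *Ech1* and *Fabp1* had log2 fold changes from 0.24 for *Ech1* to 0.93 for *Acot1*.

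At the same level 5 members were lower, and 3 without WT liver 2. Over the 35 with a mean log2 CPM of 2 or more, 4 were lower. In 1 of the 36 the level that the filter asks for was met in every WT liver only. *Fgf21*, a hormone that the liver secretes in fasting and that promotes fatty acid oxidation, had a log2 fold change of -1.24 without overlap (edgeR adjusted p = 0.388). *Fabp2*, *Fabp4*, *Cd36* and *Cidec*, which bind, take up or store fatty acids, had -0.85, -0.81, -0.38 and -0.80. The average over the list was at 0.41, 0.25, 0.40 and 0.18 in KO livers 1, 2, 3 and 5 and between -0.24 and 0.11 in WT livers, whereas KO liver 4 was at -0.20. The PPAR response element, taken as AGGNCA and a second AGGNCA after any 1 base and searched on both strands, occurred in 1 of the 28 members with a promoter in the table and in 0.381% of all promoters.

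Lists of mitochondrial and peroxisomal genes had small medians above 0. Of 31 genes of mitochondrial beta-oxidation and ketogenesis tested, 8 were higher and 1 lower at an unadjusted p under 0.05, where 5.12% and 5.62% of all genes were. Of the 31, 27 were above 0, and the median was 0.13. Without WT liver 1 or KO liver 2, 4 were higher. *Eci1*, *Slc25a20*, *Cpt2* and *Acadvl* had 0.30, 0.31, 0.26 and 0.23. *Cpt1a*, which lets fatty acids into mitochondria, was the member with a lower value and averaged 971 ± 89.9 CPM over WT and 771 ± 47.2 CPM over KO livers (SD, n = 5 each) (log2 fold change -0.33, edgeR adjusted p = 0.259). Of 51 peroxisomal genes, 9 were higher and 1 was lower, with a median of 0.10, and 5 were higher without WT liver 1 or 2. The 9 include *Abcd3*, a fatty acid transporter of the peroxisomal membrane (0.36), the thioesterase *Acot8* (0.41) and the assembly factors *Pex26* (0.47) and *Pex6* (0.37). Of 65 subunits of the respiratory chain, 7 were higher (10.8%) and none lower, 56 were above 0, and the median was 0.10. *Cox8a*, with 0.23, and *Ndufs7*, with 0.35, did not overlap. Without KO liver 3, the library of lower quality, the median of the respiratory chain was 0.05 and 3 members were higher at that level. Leaving out other livers, that number ran from 2, without WT liver 2, to 15, without KO liver 1, and it was 4, 3 and 3 without WT livers 1, 4 and 5. None of these genes passed the threshold.

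Of the other genes that passed, *Adam11*, a member of the ADAM family without protease activity, rose. WT livers had 63.9, 50.7, 76.03, 71.2 and 74.6 CPM of *Adam11* and KO livers had 119, 102, 107, 134 and 129.7 CPM. On the log2 scale the difference was 0.81 (edgeR adjusted p = 0.0285, standard error 0.12). *Pgm3*, an enzyme of the hexosamine pathway that supplies sugars for glycosylation, fell. WT livers had 45.1, 51.3, 58.1, 48.9 and 52.3 CPM of *Pgm3* and KO livers had 30.8, 25.9, 30.02, 22.3 and 35.03 CPM. The log2 fold change was -0.83 (edgeR adjusted p = 0.0281, standard error 0.12). *Plscr4*, a phospholipid scramblase gene, fell too. WT livers had 13.4, 17.4, 13.8, 12.6 and 14.98 CPM of *Plscr4* and KO livers had 8.005, 8.24, 7.03, 7.03 and 9.81 CPM. The estimated log2 fold change was -0.85 (edgeR adjusted p = 0.0285, standard error 0.13).

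The remaining falls were in genes of low level. *Stap1* encodes an adaptor protein of signaling. WT livers had 3.57, 3.83, 3.27, 3.27 and 3.19 CPM of *Stap1* and KO livers had 1.31, 1.26, 1.32, 1.65 and 1.54 CPM. Both groups were tight, with a log2 fold change of -1.27 (edgeR adjusted p = 0.0153, standard error 0.15). WT livers had 8.201, 11.2, 7.08, 8.12 and 7.82 CPM of *0610043K17Rik* and KO livers had 2.29, 3.002, 2.15, 3.58 and 3.99 CPM. WT liver 2 was highest, and the log2 fold change was -1.49 (edgeR adjusted p = 0.0223, standard error 0.20). WT livers had 2.03, 2.91, 1.43, 1.41 and 1.82 CPM of *Gm20075* and KO livers had 0.408, 0.209, 0.0827, 0.276 and 0.2102 CPM. KO livers differed from WT livers by -2.97 on the log2 scale (edgeR adjusted p = 0.0128, standard error 0.34), and it is a pseudogene on chromosome 13.

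**Figure D3:**
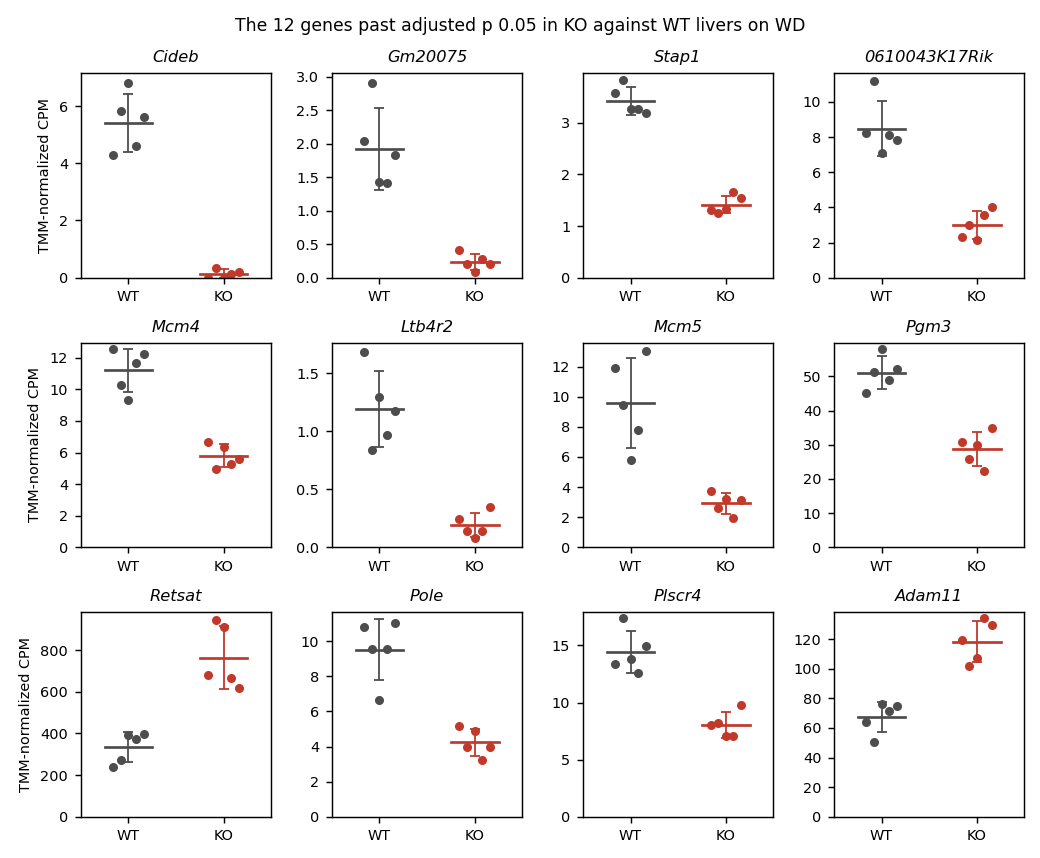
TMM-normalized CPM in each liver on WD (vertical axes, starting at 0) for the 12 genes past an adjusted p of 0.05. Grey points are WT livers and red points KO livers, with the mean as a line and the SD as a bar, and in each panel the 5 WT and 5 KO livers do not overlap.

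Among genes whose mean log2 CPM was 2 or more and that did not overlap between the groups but missed the threshold, 233 with a full gene symbol had an unadjusted p under 0.05, 140 of them higher and 93 lower in KO livers. The 8 with the highest log2 fold changes were *Tceanc2* (2.10), *Cyp4a14*, the butyrophilin-like gene *Btnl9* (1.67), *Acot11* (1.62), which splits fatty acyl-CoA, the small nucleolar RNA gene *Snora74a* (1.14), *Cyp4a10*, *Slc27a1* (1.01), a fatty acid transporter, and the carbonic anhydrase gene *Car14* (1.01). Their adjusted p-values ranged from 0.0680 to 0.319 from edgeR. *Tceanc2* took separate levels within the WT group. WT livers had 1.33, 1.22, 8.37, 6.62 and 1.37 CPM of *Tceanc2* and KO livers had 15.03, 16.8, 16.1, 16.9 and 15.6 CPM. WT livers 3 and 4 lay between the other WT livers and the KO livers. In *Snora74a*, KO liver 3 had 25.1 CPM, and the other KO livers had 6.89 to 8.48 CPM.

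The 8 with the lowest log2 fold changes were *Rassf4* (-2.72), *Gpc1* (-1.82), *Sqle* (-1.69), *Apoa4* (-1.61), *Lyrm7* (-1.05), *Themis* (-1.01), *Smpd3* (-0.97) and *Lpar1* (-0.96), with adjusted p-values from 0.106 to 0.254 from edgeR. *Gpc1* encodes glypican 1, a heparan sulfate proteoglycan of the cell surface. WT livers had 64.97, 81.5, 142, 141 and 141 CPM of *Gpc1* and KO livers had 22.5, 30.8, 46.9, 12.95 and 47.99 CPM. WT livers 1 and 2 were lower than the other 3, and KO liver 4 was lowest of all. *Rassf4* was at 251 and 362 CPM in WT livers 3 and 4 and at 47.1 to 62.6 CPM in the other WT livers, against 17.9 to 32.4 CPM in KO livers. *Smpd3* encodes a neutral sphingomyelinase and *Lpar1* a receptor of lysophosphatidic acid.

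Genes that make cholesterol and long polyunsaturated fatty acids leaned lower in KO livers. Of 30 genes of cholesterol synthesis and other SREBP2 targets, 6 were lower and 1 was higher at an unadjusted p under 0.05, and the median was -0.12. *Sqle*, squalene epoxidase, had the lowest value. WT livers had 23.1, 20.1, 5.85, 7.503 and 5.93 CPM of *Sqle* and KO livers had 4.41, 4.96, 4.13, 3.31 and 2.52 CPM. WT livers 1 and 2 were far above the other WT livers, which lay near the KO livers (edgeR adjusted p = 0.206). *Dhcr7* had -0.52, whereas *Tm7sf2* had 0.37. Without KO liver 2 or 4, 3 were lower. Of 17 desaturases and elongases, 6 were lower and none was higher, with a median of -0.20. These were *Elovl5* (-0.53), *Elovl2* (-0.39), *Fads1* (-0.46), *Fads2* (-0.45), *Fads3* (-0.69) and *Hsd17b12* (-0.31), with adjusted p-values from 0.279 to 0.435 from edgeR. KO liver 4 was lowest in both lists, at -0.36 and -0.56 on the scale of the list average.

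Lists closer to the known role of CIDEB had medians near 0. Of 22 genes of VLDL assembly and export, *Apoa4* was lower and *Apoc3* higher at an unadjusted p under 0.05, and the median was -0.0048. *Apoa4*, an apolipoprotein gene that responds to lipid load, varied widely in both groups. WT livers had 3859, 5862, 1989.8, 2212 and 3904 CPM of *Apoa4* and KO livers had 1736, 1059, 1882, 311 and 844 CPM. The groups did not overlap, but the highest KO value was close to the lowest WT value (log2 fold change -1.61, edgeR adjusted p = 0.254). None of 22 genes of phosphatidylcholine synthesis had an unadjusted p under 0.05 from edgeR, and their log2 fold changes ran from -0.55 to 0.39. Of 19 genes of de novo lipogenesis, 1 did, *Mlxipl*, which encodes the sugar-sensing factor ChREBP (0.42, edgeR adjusted p = 0.286). The median of the list was -0.02.

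Of 19 lipid droplet proteins, 2 were higher and 3 lower at that level. *Hsd17b11*, a droplet enzyme, had narrow ranges. WT livers had 257, 257, 278, 264 and 246 CPM of *Hsd17b11* and KO livers had 331, 344, 313, 359 and 332 CPM. On the log2 scale the difference was 0.37 (edgeR adjusted p = 0.134, standard error 0.07). *Hilpda*, an inhibitor of lipolysis, had -0.80, and *Fitm1* had -0.39. Of 30 genes of triglyceride synthesis and lipolysis, 5 were higher and 3 lower. The 5 were the hydrolase genes *Abhd6* (0.44), *Ces1d* (0.50), *Ces1e* (0.40), *Ces1f* (0.32) and *Lipc* (0.43), and the 3 were *Lipa* (-0.30), *Lpin3* (-0.34) and *Agpat5* (-0.26). The carboxylesterase genes *Ces1d*, *Ces1e* and *Ces1f* are near copies, so their values are uncertain. Without WT liver 3, 9 genes of this list were higher. Of 20 genes of fatty acid uptake, 5 were higher, among them *Acsl1* (0.62) and *Slc27a1*, and 4 were lower. Only 3 were higher without WT liver 2, WT liver 5, KO liver 3 or KO liver 4, and 2 were lower without WT liver 2, KO liver 2 or KO liver 4.

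**Figure D4:**
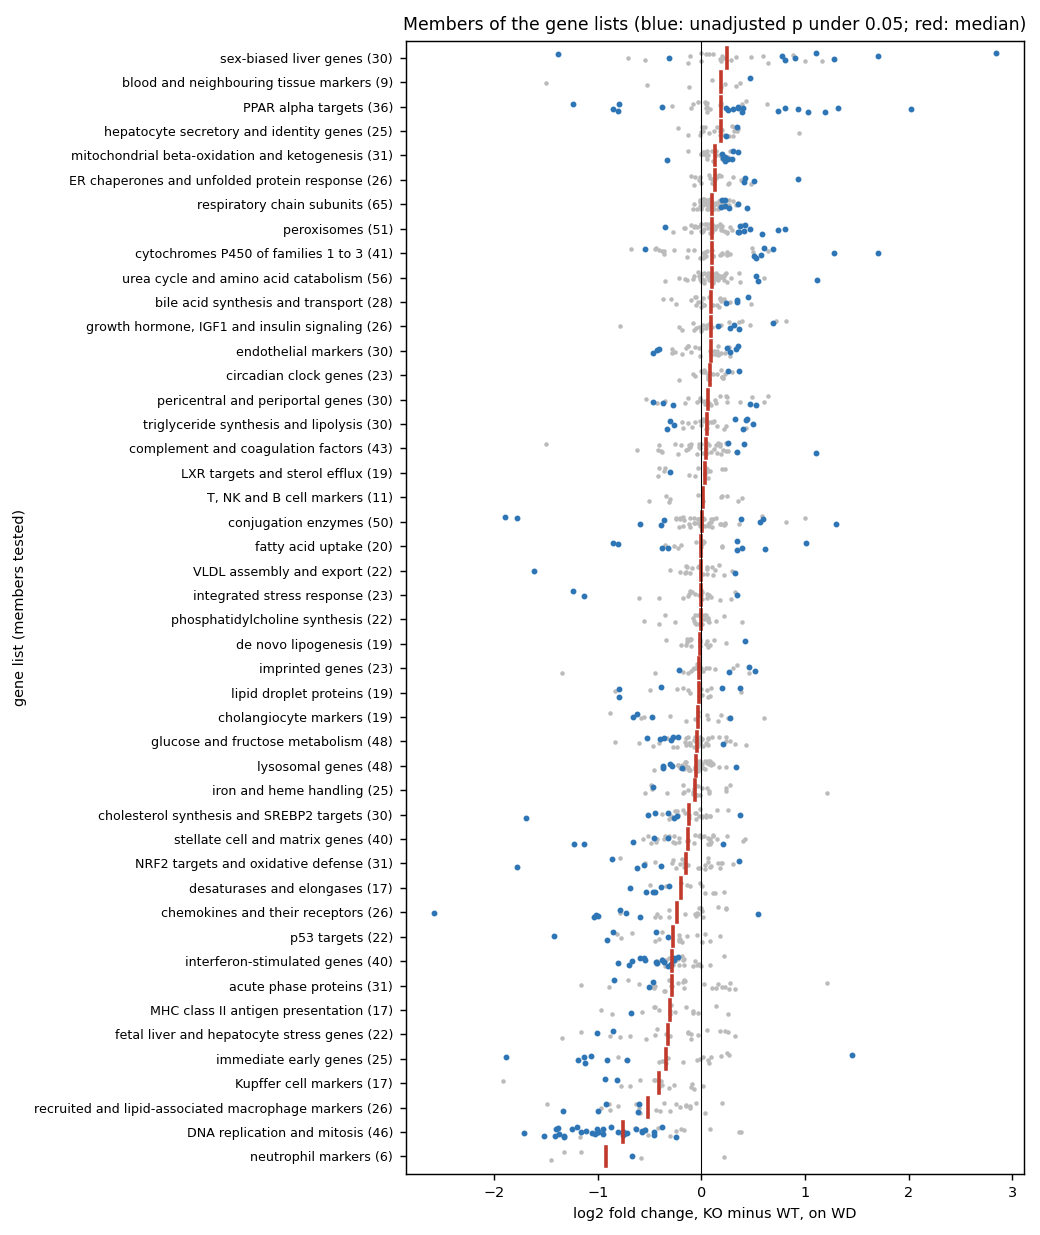
Log2 fold change of KO against WT livers on WD (horizontal axis) for the tested members of the 46 gene lists (vertical axis, with the number tested), ordered by their median. Each point is a gene, blue with an unadjusted p under 0.05, and the red line is the median of the list, which was -0.76 for DNA replication and mitosis and 0.19 for PPARα targets.

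Interferon-stimulated genes, which cells switch on against viruses and in inflammation, had slightly lower values in KO livers. Of 40 tested, 38 had a log2 fold change below 0, 15 were lower and none was higher at an unadjusted p under 0.05, and the median was -0.29. None passed the threshold. *Gbp6* and *Irgm1*, GTPases induced by interferon gamma, and *Ifi47* did not overlap between the groups. WT livers had 8.201, 6.58, 6.74, 7.33 and 6.77 CPM of *Gbp6* and KO livers had 4.98, 3.98, 4.71, 5.58 and 4.97 CPM. The log2 fold change was -0.55 (edgeR adjusted p = 0.174, standard error 0.13). *Irgm1* had -0.38 and *Ifi47* had -0.80. The transcription factor *Irf7* had -0.27, and the antigen processing genes *Psmb8*, *Psmb9* and *Tap1* had -0.44, -0.59 and -0.43. KO livers lay between -0.42 and -0.13 on the list average and WT livers between -0.28 and 0.34, so the groups overlapped. Leaving out 1 liver at a time, between 7 and 19 members were lower at that level, with 7 without WT liver 1 and 8 without KO liver 2.

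The interferon response element, taken as GAAA and a second GAAA after any 2 bases and searched on both strands, occurs in 3.44% of all promoters and in 20 of the 31 members with a promoter in the table (64.5%). It is shown in capitals with up to 10 bases on either side for the members that hold it among those lower at an unadjusted p under 0.05, which are 4 of the 10 with a promoter in the table.
Irgm1 (chr11:48871431-48871460, minus strand): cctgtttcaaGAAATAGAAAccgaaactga
Gbp2 (chr3:142620594-142620623, plus strand): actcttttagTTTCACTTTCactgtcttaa
Gbp3 (chr3:142559989-142560018, plus strand): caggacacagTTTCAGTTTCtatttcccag
Ifih1 (chr2:62646206-62646233, minus strand): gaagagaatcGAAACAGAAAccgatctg

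The log2 fold changes of *Gbp2*, *Gbp3* and *Ifih1* were -0.67, -0.70 and -0.27. *Gbp6* had no entry in the table.

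Markers of immune cells leaned lower as well, with wide spread between livers. Of 26 markers of recruited and lipid-associated macrophages, 24 were below 0, 5 were lower and none was higher at an unadjusted p under 0.05, and the median was -0.52. The 5 were *Itgam* (-1.34), *Ccr2* (-1.0), the receptor that draws monocytes into tissue, *Plac8* (-0.60), *Mpeg1* (-0.61) and *Lgals3* (-0.92). The list average lay between -0.89 and 0.99 in WT livers, and in KO livers it lay between -0.89 and 0.15, and without WT liver 1 the median was -0.12. The number lower at that level was 3 without WT liver 1, WT liver 2 or KO liver 2, 9 without WT liver 4 or KO liver 1, and 12 without WT liver 3. Of 17 Kupffer cell markers, 16 were below 0 and *Cd5l* (-0.82) and *Timd4* (-0.93) were lower at that level, with a median of -0.41 that became -0.18 without WT liver 1. Leaving out 1 liver gave 0 to 11 Kupffer cell markers lower at that level, with 0 without WT liver 1 and 0 without KO liver 3. The list of 26 tested chemokines and receptors includes *Ltb4r2*, a leukotriene receptor gene and not a chemokine receptor gene. It was the only member that fell past the threshold. As given above, its reads cannot be told apart from those of *Cideb* with certainty. Of the other members, 6 were lower at an unadjusted p under 0.05, among them *Ccl2* (-1.02), *Ccl6* (-1.03) and *Ccl9* (-0.78), whereas *Ccl27a* was higher (0.54). In 3 of the 26 the level that the filter asks for was met in every WT liver only. Only 6 of 18 neutrophil markers were high enough to be tested, with a median of -0.92. In 2 of the 6 the level that the filter asks for was met in every WT liver only. Over the 3 with a mean log2 CPM of 2 or more the median was -0.67. Of 17 genes of MHC class II presentation, 15 were below 0, with a median of -0.30 that was 0.02 without WT liver 1.

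Markers of other cell types had medians nearer 0. Of 11 tested markers of T, NK and B cells, none had an unadjusted p under 0.05 from edgeR, and the median was 0.02. The defining genes *Trac*, *Trbc1*, *Trbc2*, *Ighm*, *Igkc* and *Ighd* had 0 reads in all 10 libraries, so these cells were poorly covered by the table. Of 30 endothelial markers, 4 were higher (7 without KO liver 4) and 3 lower (0 without WT liver 5). Their median was 0.09, and 0.02 without KO liver 3. *Clec4g*, a lectin of sinusoidal endothelium, did not overlap and averaged 28.98 ± 1.13 CPM over WT and 36.9 ± 2.88 CPM over KO livers (SD, n = 5 each) (log2 fold change 0.35, edgeR adjusted p = 0.140). Of 40 stellate cell and matrix genes, 5 were lower, among them *Thbs1* (-1.23), *Lox* (-1.14) and *Acta2* (-0.66), and 1 was higher, with a median of -0.13 that was -0.32 without KO liver 3 and -0.01 without WT liver 2. In that list 2 were lower without WT liver 1, WT liver 5, KO liver 4 or KO liver 5, 3 without KO liver 2, and 8 without WT liver 4. Of 19 cholangiocyte markers, *Krt8* (-0.62), *Krt18* (-0.66) and *Ezr* (-0.48) were lower, and *Slc4a2* was higher (0.28). Hepatocytes express *Krt8* and *Krt18* too. Of 25 secretory and identity genes of hepatocytes, 21 were above 0, with a median of 0.19. Of 9 tested markers of blood and neighboring tissues, *Alas2* alone had an unadjusted p under 0.05 from edgeR (0.47), and *Amy2a5*, *Ckm*, *Ctrb1*, *Lep*, *Pnlip* and *Prss1*, markers of pancreas, muscle and fat, had 0 reads in all 10 libraries.

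**Figure D5:**
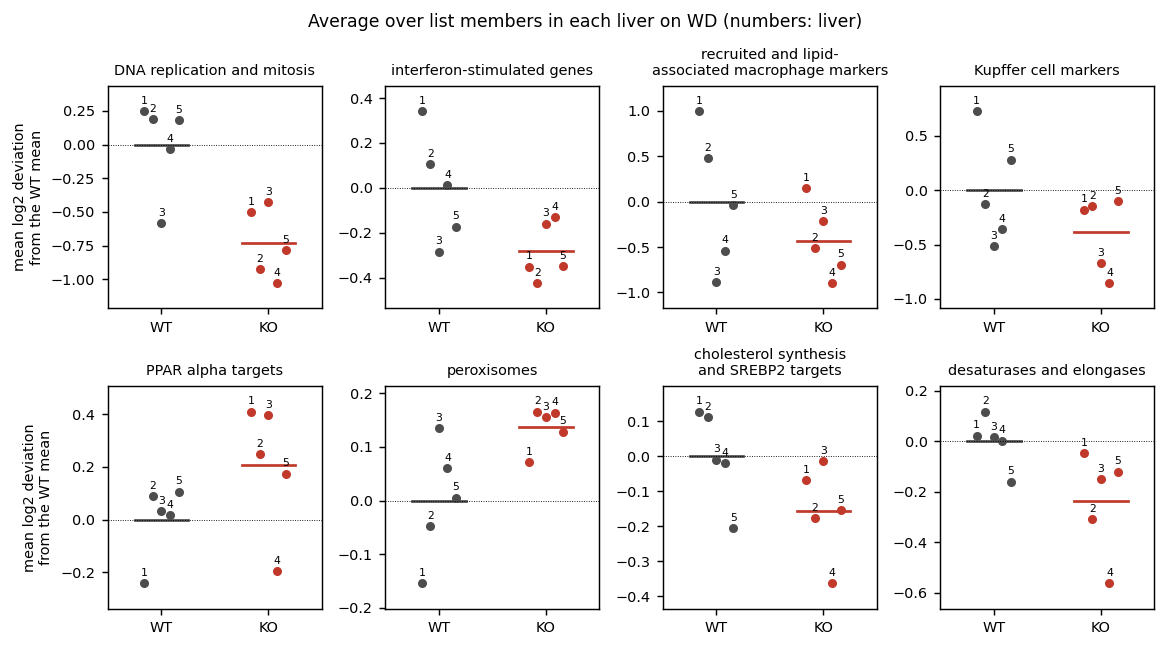
Mean log2 deviation from the WT mean over the tested members of 8 gene lists (vertical axes) in each WT (grey) and KO (red) liver on WD, with the group mean as a line and the liver's number beside each point. In DNA replication and mitosis, 4 of the 5 WT livers lie above all KO livers and WT liver 3 lies among them.

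Stress pathways gave mixed directions. Of 22 p53 targets, 5 were lower and none was higher at an unadjusted p under 0.05, where 5.62% and 5.12% of all genes were. The median was -0.27, and over the 17 with a mean log2 CPM of 2 or more 3 were lower. In 3 of the 22 the level that the filter asks for was met in every WT liver only. *Btg2*, which restrains growth, did not overlap (-0.91), and *Tnfrsf10b*, *Pmaip1*, *Ccng1* and *Mdm2* had -1.42, -0.85, -0.44 and -0.32. Of 25 immediate early genes, 7 were lower, among them *Fos* (-1.19), *Fosb* (-1.88), *Egr1* (-1.07) and *Klf4* (-1.13), and *Myc* was higher (1.45). Their median was -0.34. Over the 20 with a mean log2 CPM of 2 or more it was -0.11, and 4 of those were lower. In 2 of the 25 the level that the filter asks for was met in every WT liver only. Of 31 NRF2 targets, 5 were lower, among them *Srxn1* (-0.86), *Nqo1* (-0.56) and *Gsta1* (-1.78), and 1 was higher, *Gpx1* (0.36). Without KO liver 1, 10 were lower, and without KO liver 3, 8 were. Of 26 ER chaperones and genes of the unfolded protein response, 4 were higher and none was lower, with *Creld2* at 0.93, *Hyou1* at 0.42 and the sensor *Ern1* at 0.41. In the integrated stress response, with 23 tested, *Ddit3* was higher (0.34), *Fgf21* and *Atf3* (-1.13) were lower, and the median was -0.01. Over the 19 with a mean log2 CPM of 2 or more, 1 was lower. In 3 of the 23 the level that the filter asks for was met in every WT liver only. Acute phase proteins had a median of -0.29 over 31 genes, which was -0.42 without KO liver 5 and -0.07 without WT liver 5, with *Cp*, ceruloplasmin, lower without overlap (-0.47) and *Steap4* and *Cd14* also lower (-0.50 and -0.84). Of 22 fetal liver and hepatocyte stress genes, *Anxa2* (-1.01) and *S100a11* (-0.86) were lower, with a median of -0.33 that became -0.10 without WT liver 1. None of these genes passed the threshold.

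Among enzymes of drugs and of intermediary metabolism, *Cyp3a11*, the main mouse enzyme of the CYP3A family, had no overlap. WT livers had 1961, 1853, 2182, 2448 and 1552 CPM of *Cyp3a11* and KO livers had 3910.3, 3143, 3327, 2977 and 2818 CPM. The estimated log2 fold change was 0.69 (edgeR adjusted p = 0.140, standard error 0.14). Of 41 cytochromes P450 of families 1 to 3, 7 were higher at an unadjusted p under 0.05, including *Cyp2f2* (0.53), and 1 was lower, with a median of 0.10. Without WT liver 1, 2 or 3 or KO liver 2 or 3, 4 were higher. Of 50 conjugation enzymes, 4 were higher (2 without WT liver 5 or KO liver 4) and 5 lower (3 without WT liver 5). *Nat8* (0.56) and *Sult5a1* (1.30) were higher without overlap, and *Sult1e1* (-1.89), the estrogen sulfotransferase, and *Gsta1* had the lowest log2 fold changes. Of 48 genes of glucose and fructose metabolism, 6 were lower (3 without WT liver 2) and 1 was higher. *Gbe1*, the glycogen branching enzyme, and *Ldha*, a subunit of lactate dehydrogenase, did not overlap. WT livers had 278, 309, 262, 285 and 254 CPM of *Gbe1* and KO livers had 233, 205, 194, 208 and 212 CPM. KO livers differed from WT livers by -0.40 on the log2 scale (edgeR adjusted p = 0.140, standard error 0.08), and *Ldha* had -0.53. *Gckr*, the regulator of glucokinase, was slightly higher without overlap (0.20).

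In the growth hormone and insulin list, 5 of 26 genes were higher and none was lower at that level, among them *Igfals* (0.69), *Igfbp3* (0.36) and *Irs1* (0.31), and 3 were without WT liver 1 and 2 without WT liver 2. Of 30 sex-biased genes of liver, 7 were higher (4 without WT liver 5 or KO liver 3) and 2 lower, with *Cyp4a12a* (1.11) and *Cyp4a12b* (0.78), which males express more, and *Cyp2a4* (1.70) and *Cyp2b9* (1.28), which females express more, all on the higher side. *Serpina1e*, a member of the same list, depended on KO liver 5, with 1572 CPM against 190.0 CPM or less in the other KO livers. Of 28 bile acid genes, 4 were higher and none was lower, among them the receptors *Fgfr4* (0.45) and *Nr1h4* (0.24), with 2 without WT liver 1 or KO liver 2 and 1 without KO liver 4. Of 56 genes of the urea cycle and amino acid catabolism, 3 were higher (5.36%, near the 5.12% of all genes) and none was lower, with a median of 0.10, and leaving out 1 liver gave 2 to 8. Of 43 complement and coagulation genes, 4 were higher and none was lower, with *C8b* at 1.11, and 2 were higher without WT liver 2 or KO liver 2, 4 or 5. Of 48 lysosomal genes, 5 were lower and *Ctsf* was higher (0.33), with 2 lower without WT liver 1 or KO liver 3, 3 without KO liver 4 and 8 without WT liver 3. In 5 further lists, of LXR targets, iron handling, clock genes, zonation genes and imprinted genes, between 1 and 5 members had an unadjusted p under 0.05 from edgeR, and the medians ran from -0.07 to 0.08.

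The KO effect of some genes differed between the livers on WD and those on CDA-HFD. The labels give 3 months on either diet, whereas the study's captions give a longer time on WD than on CDA-HFD. If the times differed, diet and time on it cannot be told apart here. The interaction of diet and KO passed for 99 of 17804 genes (0.556%) in edgeR, with 36 to 105 genes when 1 liver on WD was left out. That number was 60, 50, 36 and 53 without WT livers 2, 3, 4 and 5, and 54, 54 and 65 without KO livers 1, 2 and 4. Among the genes named here it passed for *Gpc1*, *Gbp6*, *Gbe1* and *0610043K17Rik*. The log2 fold change of *Gpc1* was -1.82 on WD and 0.49 on CDA-HFD, a difference of 2.32 (edgeR adjusted p = 0.0148). *Gbp6* had -0.55 and 0.92, a difference of 1.49 (edgeR adjusted p = 0.0149). *Gbe1* had -0.40 and 0.32, a difference of 0.73 (edgeR adjusted p = 0.0475). *0610043K17Rik* had -1.49 and 0.31, a difference of 1.81 (edgeR adjusted p = 0.0273). The values on CDA-HFD did not themselves pass for these 4 genes except for *Gbp6* (edgeR adjusted p = 0.0235). For *Mcm4*, *Mcm5* and *Pole* the log2 fold changes on CDA-HFD were -0.49, -0.75 and -0.47. On CDA-HFD *Mcm5* and *Pole* passed and *Mcm4* did not (adjusted p = 0.0241, 0.0334 and 0.0738 from edgeR). The difference between the diets did not pass for *Mcm4*, *Mcm5* or *Pole* (adjusted p = 0.306, 0.161 and 0.132 from edgeR). *Retsat* had 1.16 on CDA-HFD, a difference of -0.02 (edgeR adjusted p = 0.985). *Adam11* was at 118 ± 13.96 CPM in KO livers on WD and at 6.22 ± 2.93 CPM on CDA-HFD (SD, n = 5 each), and its KO effect of -0.43 there differed from that on WD by -1.22 (edgeR adjusted p = 0.0669).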

How the data were processed

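RNA of whole liver was sequenced from 20 mice. The authors deposited raw counts per gene, made from reads aligned to mm10 per the labels. The aligner and counter, and whether counting used strand, are not given in the sources used here. The 5 rows that name no gene were dropped; in the WD libraries they held 20.7% to 25.6% of reads outside genes, 0.800% to 1.03% ambiguous, 3.28% to 6.82% not aligned and 21.9% to 28.7% aligned to several places, relative to all rows.

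The 10 WD livers were compared with the quasi-likelihood F test of edgeR 4.0.16 in R 4.3.3, after filterByExpr and TMM normalization, with Benjamini-Hochberg adjustment over all 15848 genes tested and no covariate. CPM are TMM-normalized, and log2 CPM for principal components and list averages used a prior count of 2. The interaction of vector and diet was fitted on all 20 livers. KO and WT livers on CDA-HFD were also compared by the same edgeR test, with filter and TMM factors from those livers alone. Their CPM were scaled by these factors. Single values per library were compared by an exact two-sided permutation test over 252 splits. The study's methods say in general that experiments were run on several days with mice of more than 1 litter. The labels do not give the day or litter of a liver, so neither could be fitted, and p-values measure the spread between these samples. Intervals on read counts cover counting error only.

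Named genes were *Cideb*, its neighbors and relatives; every gene past the threshold; the 8 highest and 8 lowest log2 fold changes among genes without overlap that missed it, with an unadjusted p under 0.05, a mean log2 CPM of 2 or more and a full symbol; and up to 3 members of each of 46 gene lists by unadjusted p. Further list members are given as examples chosen after their values were seen. The members and lists were chosen with earlier results of these data known. Alternatives were RLE factors, library size alone, DESeq2 1.42.0, limma 3.58.1 with voom, a robust fit, other filters, a fit of all livers, a replicate block and the omission of livers.

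Replicate numbers are shared between the groups, but nothing says that they mark pairs. Deviations of same-numbered livers correlated between -0.307 and 0.324, so the numbers were not taken to pair them. On simulated counts without any change, 1 of 15683 genes passed. With known changes, 10.4% of 67 genes were recovered at a log2 fold change of 0.5, 68.2% of 66 at 1 and 92.2% of 64 at 2, among 15688 genes.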

Additional observations from a re-analysis of the deposited data

Results flagged for a closer look

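In 264 groups of 5 livers, formed by the named genes, 16 had a liver whose gap to the nearest other liver was large for the range of the group, where chance alone flags about 1 in 20 groups. Among WT livers, WT liver 1 was apart for *Cyp2f2* (548 CPM) and *Ifi47* (32.6 CPM), WT liver 2 for *0610043K17Rik* (11.2 CPM), WT liver 3 for *Apoc3* (817 CPM) and WT liver 4 for *Ehd3* (68.8 CPM). WT liver 5 was apart for *Fads1* (624 CPM), *Thbs1* (52.1 CPM, next 13.1 CPM) and *Fosb* (5.99 CPM, next 1.94 CPM). Among KO livers, KO liver 1 was apart for *Cox8a* (103 CPM), KO liver 3 for *Snora74a* (25.1 CPM) and *Ndufs7* (66.3 CPM), and KO liver 4 for *Nr1d1* (93.0 CPM). KO liver 5 was apart for *Ltb4r1* (0.140 CPM), *Btnl9* (3.43 CPM), *Fabp2* (121 CPM) and *Serpina1e* (1572 CPM, next 190.0 CPM).

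The KO effect of 4 named genes differed between the diets by the interaction test of edgeR, each with a higher log2 fold change on CDA-HFD than on WD. Time on the diet may have differed as well, as given above. The difference was 2.32 for *Gpc1* and 1.49 for *Gbp6*, and both passed in 14 of 14 alternatives. It was 1.81 for *0610043K17Rik*, which passed in 10 of 14, and 0.73 for *Gbe1*, which passed in 3 of 14.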

How the results depend on the processing

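The number of genes past an adjusted p of 0.05 depended on the test and on single livers. Against 12 genes (2 higher, 10 lower), DESeq2 gave 151 (58 and 93), limma with voom 21 (7 and 14), no filter on low counts 38 (13 and 25, with 1490 lower at an unadjusted p under 0.05), the fit of all 20 livers 26 (2 and 24), library size alone 8 (2 and 6), and a minimum of 10 reads in every library 9 (2 and 7). RLE factors and the robust fit gave 12 each. With library size alone, 39.6% of the genes at an unadjusted p under 0.05 were higher, against 47.6%. Leaving out 1 liver gave 1 to 33 genes, with 0 to 6 higher and 1 to 27 lower. In sets chosen after seeing the data, 1 gene passed without KO livers 3 and 5 (0 higher, 1 lower), and 51 passed without WT livers 3 and 4 (13 and 38, with 2621 at an unadjusted p under 0.05, 1573 of them lower). The cause was not tested. In each fit that tested them, the 12 genes kept their direction.

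With the replicate number as a block, 2 genes passed (0 higher, 2 lower), 1 of the 12 among them. Nothing says whether the numbers pair the livers, and the correlations of same-numbered livers ran from -0.307 to 0.324. Why the other calls were lost was not tested.

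The difference between the diets for *Retsat*, -0.02, ran from -0.098 to 0.070 when 1 liver was left out, was above 0 without WT liver 1 or 2 or KO liver 2 or 3, and was 0.20 without KO liver 5 on CDA-HFD. Without the last, 2138 genes passed the interaction test, and 363 did with DESeq2, against 99. Depth limits genes of few reads, such as *Cideb* in KO livers, *Ltb4r1* and *Ltb4r2*.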

Other observations

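Some differences lay near each other on the genome. Of 15528 genes with a position, 483 (3.11%) had an unadjusted p under 0.01 from edgeR. On chromosome 4, 8 of 77 genes between 100 and 110 Mb (10.4%) and 10 of 92 between 110 and 120 Mb (10.9%) did. The former include *0610043K17Rik*, *Acot11* and *Tceanc2*. The latter include the neighboring near copies *Cyp4a14*, *Cyp4a10* and *Cyp4a31*, which are not independent of each other. These bins were chosen after their values were seen among 230 bins of 10 Mb, of which one on chromosome 12, from 90 to 100 Mb, had the highest share, with 3 of 24 genes (12.5%).

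*Tceanc2* was at 1.33, 1.22, 8.37, 6.62 and 1.37 CPM in WT livers on WD and at 22.6, 1.43, 11.5, 12.03 and 1.81 CPM in WT livers on CDA-HFD, so separate levels occurred within WT livers on both diets. In the same WT livers on CDA-HFD, *Cyp4a14* was at 258, 66.4, 357, 169 and 39.5 CPM, lowest in livers 2 and 5 as *Tceanc2* was. Why these levels went together was not tested.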
